A study of Mus musculus with 10 samples.

Results

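Collagen chain genes are described here in the developing mouse retina by 2 histone modifications, H3K4me2 and H3K27me3, around the transcription start site (TSS). The genes were chosen by name alone, as every symbol made of Col, a type number, the letter a and a chain number, and 40 of the 20045 symbols of the deposited table met this rule. They held 45 of its 25152 entries, because Col2a1, Col4a5, Col6a6, Col18a1 and Col25a1 have several entries each, and the one whose 8 values added up to most stood for such a gene. The retinas were those of C57BL/6j mice at E17.5 (an embryonic day) and at PN1, PN7 and PN15 (postnatal days), with at least 20 retinas pooled per stage, and chromatin was immunoprecipitated with an antibody against H3K4me2 or H3K27me3 and sequenced (ChIP-Seq). Each of the 8 combinations of mark and stage had 1 library, so no difference has a replicate to be compared with, no p-value could be given, and the pooled retinas do not show how animals differ. In the labels the first stage is E17, the Pde6b rd1/rd1 strain is named for every library and the antibody numbers are swapped between the marks relative to the methods. The stage and the strain were taken from the methods, which give E17.5 and describe rd1/rd1 only as a control without rods, and the mark from each sample title.

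Collagens are extracellular proteins whose chains coil into triple helices. Fibrillar collagens form the fibrils of connective tissue and of the vitreous, type IV collagen forms the sheet of basement membranes such as the inner limiting membrane and the sheath of blood vessels, and other classes decorate fibrils, link them to membranes or span the cell membrane. In the eye most of these proteins are made by lens, ciliary body, vascular, corneal and connective tissue cells, and few are typical products of retinal neurons. H3K4me2 is found at active and poised promoters and H3K27me3, the product of Polycomb repressive complex 2, at repressed ones, and a promoter at which both are found is often called bivalent.

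The promoters of 7 chain genes show the range of sequences that the occupancy values come from, and they were chosen after the values were seen. Each run covers 250 bases before to 50 bases after the RefSeq start site, so its last 50 bases belong to the first exon, and it is written 5′ to 3′ on the strand of the gene with every CG dinucleotide (CpG) in capitals. Col4a1 and Col4a2, which encode the main chains of type IV collagen, start 21 bp apart in opposite directions and are shown because H3K27me3 rose at both. The sequence of Col4a1 lies on the minus strand at chr8:11312777-11313076 (mm9) and holds 37 CpG, and that of Col4a2 on the plus strand at chr8:11312555-11312854 holds 33. Col23a1 (plus strand, chr11:51103172-51103471, 24 CpG) and Col25a1 (plus strand, chr3:129883513-129883812, 23 CpG) encode transmembrane collagens at which H3K27me3 also rose. Col8a2 (plus strand, chr4:125963788-125964087, 32 CpG), a chain of the hexagonal lattice of Descemet's membrane, had one of the largest H3K27me3 sums, and H3K27me3 fell there by PN15. Col3a1 (plus strand, chr1:45368133-45368432), a fibrillar chain of vessel walls, and Col28a1 (minus strand, chr6:8142568-8142867) hold no CG and had little of either mark.
Col4a1: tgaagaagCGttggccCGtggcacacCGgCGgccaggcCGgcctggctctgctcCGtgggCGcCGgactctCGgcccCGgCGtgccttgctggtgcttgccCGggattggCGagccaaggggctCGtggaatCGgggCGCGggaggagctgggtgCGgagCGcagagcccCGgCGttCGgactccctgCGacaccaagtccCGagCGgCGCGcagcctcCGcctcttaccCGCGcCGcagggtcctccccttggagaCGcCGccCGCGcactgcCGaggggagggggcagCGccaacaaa
Col4a2: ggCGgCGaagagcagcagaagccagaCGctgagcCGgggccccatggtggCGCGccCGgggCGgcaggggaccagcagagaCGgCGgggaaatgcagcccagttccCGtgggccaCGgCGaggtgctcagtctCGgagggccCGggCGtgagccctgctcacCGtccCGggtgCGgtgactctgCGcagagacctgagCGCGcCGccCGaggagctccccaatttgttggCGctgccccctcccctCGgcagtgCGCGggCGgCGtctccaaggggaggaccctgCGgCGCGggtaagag
Col23a1: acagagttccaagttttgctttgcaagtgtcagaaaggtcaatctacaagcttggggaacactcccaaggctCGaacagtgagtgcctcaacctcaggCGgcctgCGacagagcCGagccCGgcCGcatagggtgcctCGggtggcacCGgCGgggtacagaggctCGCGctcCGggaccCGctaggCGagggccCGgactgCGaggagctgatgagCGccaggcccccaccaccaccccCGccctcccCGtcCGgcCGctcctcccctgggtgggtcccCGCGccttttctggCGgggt
Col25a1: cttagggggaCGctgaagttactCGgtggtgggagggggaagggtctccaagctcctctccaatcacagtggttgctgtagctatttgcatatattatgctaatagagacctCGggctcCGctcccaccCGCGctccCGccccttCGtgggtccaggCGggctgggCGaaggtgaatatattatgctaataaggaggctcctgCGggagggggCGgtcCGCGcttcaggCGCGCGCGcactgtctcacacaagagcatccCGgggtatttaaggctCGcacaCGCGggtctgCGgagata
Col8a2: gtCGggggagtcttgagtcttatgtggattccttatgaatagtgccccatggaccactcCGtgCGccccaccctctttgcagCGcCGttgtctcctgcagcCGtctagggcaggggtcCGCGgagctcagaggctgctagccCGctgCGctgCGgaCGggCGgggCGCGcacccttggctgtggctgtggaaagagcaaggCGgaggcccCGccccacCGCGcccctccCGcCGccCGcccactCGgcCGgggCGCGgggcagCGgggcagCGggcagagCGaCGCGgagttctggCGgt
Col3a1: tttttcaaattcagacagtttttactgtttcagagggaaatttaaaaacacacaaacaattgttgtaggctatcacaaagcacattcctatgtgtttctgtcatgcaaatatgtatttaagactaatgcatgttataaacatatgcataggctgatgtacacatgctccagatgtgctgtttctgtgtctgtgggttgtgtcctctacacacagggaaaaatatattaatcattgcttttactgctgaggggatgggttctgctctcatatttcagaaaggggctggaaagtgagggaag
Col28a1: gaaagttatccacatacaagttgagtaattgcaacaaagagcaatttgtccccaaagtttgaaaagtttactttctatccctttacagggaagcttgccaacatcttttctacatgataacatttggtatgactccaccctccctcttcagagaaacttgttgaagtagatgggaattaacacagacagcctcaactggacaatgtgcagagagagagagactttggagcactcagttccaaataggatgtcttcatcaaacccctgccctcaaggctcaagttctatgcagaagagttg
Of the 32851 promoters of this length in the RefSeq table, 5.43% hold no CG, which reads the same on both strands, and the median promoter holds 7.

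The values are normalized occupancies, that is, reads within 2.5 kb of the TSS which the authors scaled to each library's mapped total and then rounded. A value was taken to be above background when it exceeded the 95th percentile of 1053 entries of olfactory receptor genes, which are silent in retina, in the same library. This level was 4, 8, 1 and 7 for H3K4me2 at the 4 stages in order, and 21, 22, 22.4 and 29 for H3K27me3. The summed occupancy of a library lay between 590366 and 1200594. Where the spacing of the values showed it, between 1.06 and 3.2 reads stood for a value of 1, and elsewhere 1 read per unit was assumed. On these numbers 3 reads gave a value between 0.938 and 3.0, the latter where it was assumed. Exact Poisson 95% intervals from these read numbers are given below for single values and cover counting error only. The H3K4me2 library of PN7 stood apart, with 19.5% of all entries at 0 against 0.362% to 2.52% in the other H3K4me2 libraries. In all 8 libraries the retina is a mixture of cells, so a lower value cannot be told apart between fewer cells carrying the mark and less of it per cell.

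H3K4me2 was above background at most collagen chain genes, as at most other genes. H3K27me3 was above background at a larger share of the collagen chain genes than of all symbols. H3K4me2 was above background at 36 of 40 members at E17.5 (77.2% of all symbols), 32 at PN1 (72.0%), 34 at PN7 (72.1%) and, by PN15, 30 (70.9%). A background level of 1 at PN7 admits values under 3 reads if 1 read stands for 1 unit, which was assumed for this library. With at least 3 reads asked for as well (a limit chosen after seeing the data) the PN7 count was 32 (69.6%), without Col20a1 and Col22a1, both at 2. No count of members called between stages changed with this limit. Its median over the members was 28.5, 19.5, 16.5 and 16.5 at the 4 stages, below the median of all symbols of 41, 27, 24 and 42. H3K27me3 was above background at 26 members at E17.5 (24.3% of all symbols), 28 at PN1 (24.8%), 28 at PN7 (24.3%) and 26 at PN15 (19.3%). Over the members the H3K27me3 median was 35, 47, 43.5 and 40, against 11, 10, 9 and 10 over all symbols. With the 99th percentile of the olfactory receptor entries as the background level, 23, 21, 21 and 19 members were above it for H3K27me3 at the 4 stages, against 17.1%, 15.4%, 15.9% and 13.8% of all symbols.

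Both marks were found together at 25 of 40 members at E17.5 (22.1% of all symbols), 26 at PN1 (20.9%), 27 at PN7 (21.0%) and 24 at PN15 (15.2%). They were found together at all 4 stages at 21 members (12.1% of all symbols), and H3K27me3 at all 4 stages at 23 (15.5%). H3K27me3 was above background at no stage at 11 members, 27.5% of them against 69.5% of all symbols. These were Col3a1, Col5a2, Col6a1, Col6a2, Col9a1, Col10a1, Col11a1, Col17a1, Col20a1, Col22a1 and Col28a1. Col9a1, Col10a1 and Col28a1 had neither mark in any of the 8 libraries, 3 of 40 members against 16.9% of all symbols. H3K27me3 without H3K4me2 was found at 1 member at E17.5 (2.27% of all symbols), 2 at PN1 (3.88%), 1 at PN7 (3.3%) and 2 at PN15 (4.07%), near the general share, and Col6a6 and Col7a1 were the genes in this state.

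**Figure D1:**
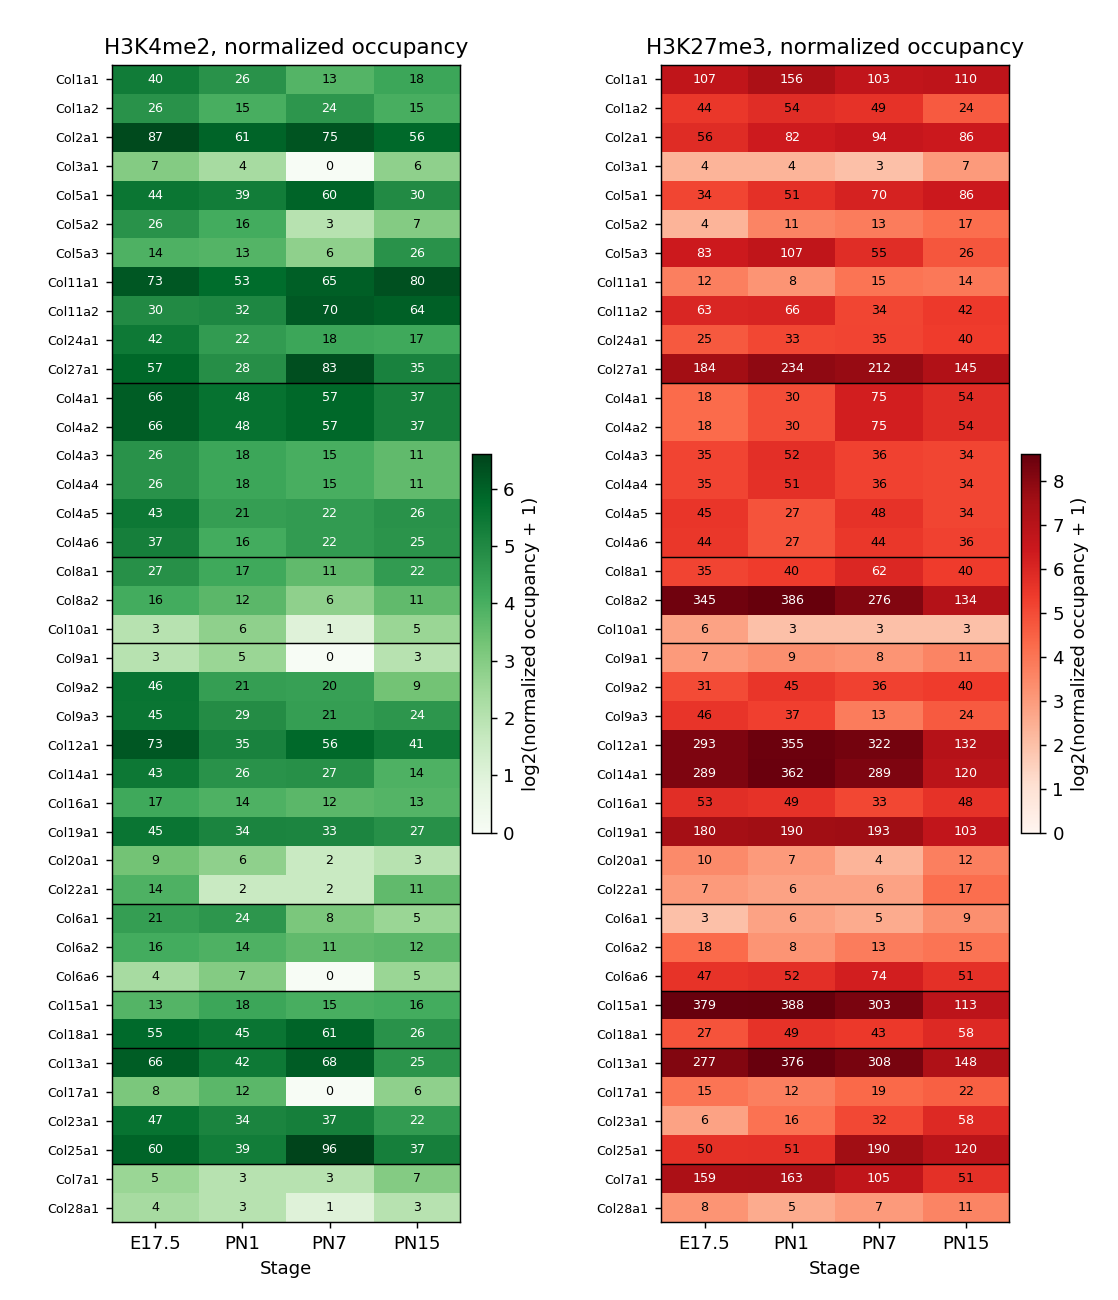
Normalized occupancy of H3K4me2 (green) and H3K27me3 (red) at the 40 collagen chain genes, printed in each cell for 1 library per stage and coloured on a log2(value + 1) scale, with lines between structural classes. H3K27me3 reached 379 at E17.5 (Col15a1) and at most 148 at PN15 (Col13a1), and H3K4me2 did not exceed 96 (Col25a1 at PN7).

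**Figure D2:**
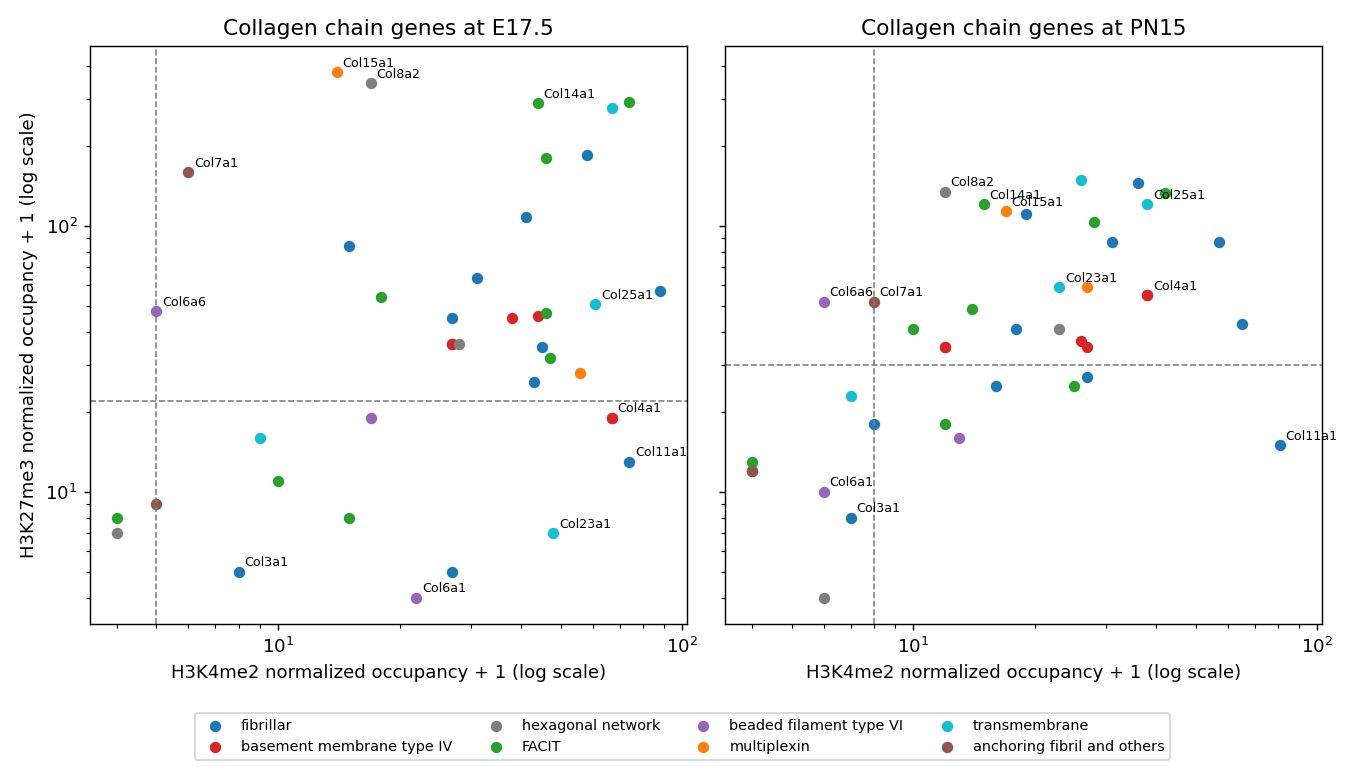
H3K4me2 against H3K27me3 at each collagen chain gene at E17.5 and PN15, as normalized occupancy + 1 on log axes, 1 point per gene and 1 library per axis; dashed lines are the background levels. The upper right field holds 25 genes at E17.5 and 24 at PN15, and Col4a1 and Col23a1 lie below the H3K27me3 level at E17.5 and above it at PN15.

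Changes between stages were taken as log2((later + 1)/(earlier + 1)) minus the median of this value over all symbols. A gene rose or fell where the change was at least 1 in either direction (2-fold) and the higher value was above background. From E17.5 to PN15, 13 of 40 members fell and 0 rose in H3K4me2, where 8.84% of all symbols fell and 3.26% rose. Only genes whose higher value was above background could be called, which held for 35 members and 15688 symbols in H3K4me2, and 37.1% of these members fell against 11.3% of these symbols. The median H3K4me2 change of the members was -0.82 relative to that of all symbols, and 34 of 40 members lay below the median of all symbols. In H3K27me3, 6 members rose and 6 fell over the same span, 15% in each direction against 2.89% and 8.68% of all symbols, and the median change of the members was 0.08. In H3K27me3 29 members and 5319 symbols could be called, a larger share of the members, and of those 20.7% of the members rose and 20.7% fell, against 10.9% and 32.7% of the symbols. Counting intervals were compared after shifting those of the later stage by the median change of all symbols. They then did not overlap for 12 of the 13 members falling in H3K4me2, Col20a1 being the exception. Of all symbols, 5.55% fell with intervals apart. With 1 read per unit in every library the count was 10, against 4.66%. Counting intervals did not overlap for the 6 rising and the 6 falling in H3K27me3 either (2.61% and 8.0% of all symbols). With 1 read per unit throughout, both H3K27me3 counts were 6 (2.55% and 7.86%). No read spacing was found in the PN15 library of H3K4me2 or the E17.5 library of H3K27me3, where 1 read per unit was assumed.

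By sign alone, and with changes near 0 included, H3K4me2 lay below and H3K27me3 above the median change at 20 of 40 members (50%), against 24.5% of all symbols, and the reverse held at 5 (12.5%, against 26.7%). The signs were thus opposite at 25 members (62.5%, against 51.2%), and both marks lay below the median change at 14 (35%, against 22.6%). By the 2-fold rule, H3K4me2 fell and H3K27me3 rose at 2 members, Col18a1 and Col23a1, and both marks fell at Col14a1. In all, 22 members were called in either mark and 18 in neither. The share of all symbols was not counted for these joint calls, so they only describe the members.

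**Figure D3:**
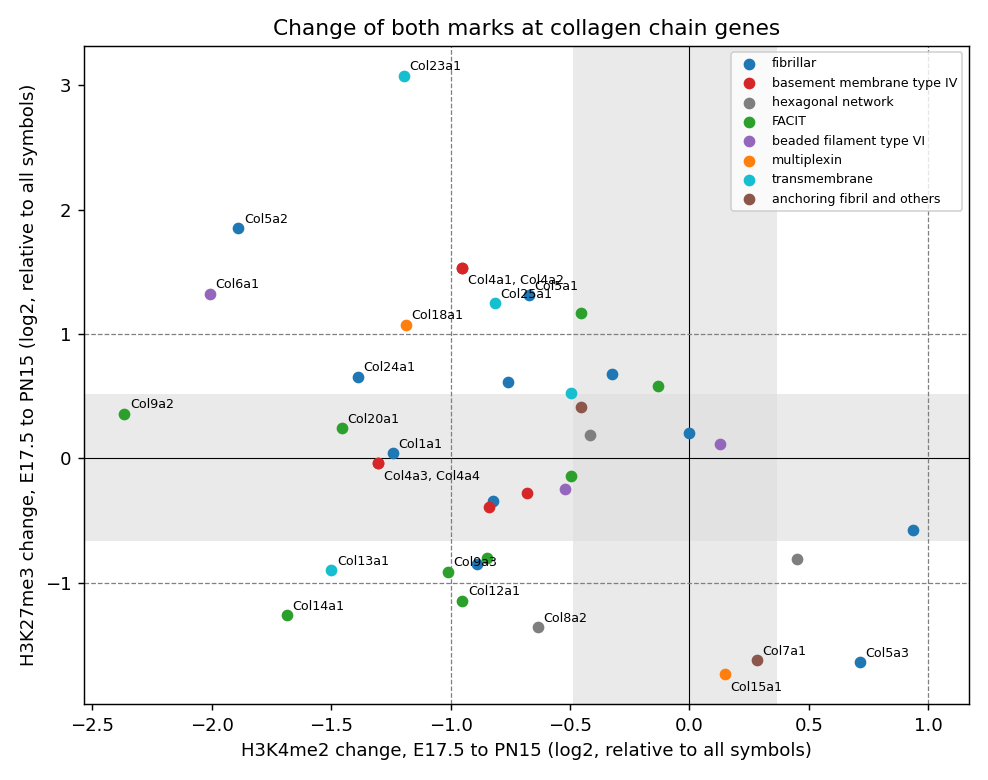
Change from E17.5 to PN15 of H3K4me2 (horizontal) and H3K27me3 (vertical) at the 40 collagen chain genes, as log2 of (value + 1) relative to the median of all symbols, 1 library per stage and mark; grey bands span the quartiles of all symbols, dashed lines mark 2-fold, and called genes are named. Of the 40 genes, 34 lie left of 0, and Col23a1 has the largest rise of H3K27me3 at 3.08.

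Between neighbouring stages, 0 members rose and 1 fell (Col22a1) in H3K4me2 from E17.5 to PN1, against 2.4% and 0.873% of all symbols. From PN1 to PN7, 7 members rose (Col1a2, Col5a1, Col11a2, Col12a1, Col13a1, Col25a1 and Col27a1) and 2 fell (Col5a2 and Col17a1), against 13.6% and 6.11%. From PN7 to PN15, 1 member rose (Col22a1) and 19 fell, against 6.38% and 13.6%, and the median change of the members was -0.90. These counts moved with the centring, and the median of all symbols itself changed by -0.42, -0.50 and 1.0 in the 3 steps and by 0.13 from E17.5 to PN15. Without centring, 0 rose and 6 fell in the first step, against 1.57% and 5.75% of all symbols, and 3 rose and 4 fell in the second, against 3.99% and 11.8%. In the third step 2 rose and 5 fell, against 30.9% and 1.6%, and from E17.5 to PN15 the counts were 1 (Col11a2) and 12, against 4.38% and 7.71%.

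In H3K27me3, 0 members rose and 0 fell from E17.5 to PN1, against 0.659% and 0.21% of all symbols. From PN1 to PN7, 4 rose (Col4a1, Col4a2, Col23a1 and Col25a1) and 1 fell (Col9a3), against 2.21% and 2.04%. From PN7 to PN15, 0 rose and 8 fell (Col1a2, Col5a3, Col7a1, Col8a2, Col12a1, Col13a1, Col14a1 and Col15a1), against 1.22% and 5.51%. With a pseudocount of 5 the last count was 5 (Col8a2, Col12a1, Col13a1, Col14a1 and Col15a1), against 4.61% of all symbols. H3K27me3 at Col4a1, Col4a2 and Col25a1 was highest at PN7.

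Of the 6 members where H3K27me3 fell, 5 were among those with the most of it at E17.5, and Col5a3, at 83, was the other. Of the 9 members with H3K27me3 of at least 100 at E17.5, 0 rose and 5 fell by PN15 with a median change of -1.14, and of the 1601 symbols at this level 0.0% rose and 63.8% fell with a median of -1.16. Of the 31 members under 100, 6 rose (19.4%) and 1 fell (3.23%) with a median change of 0.36, where 3.14% of the 18444 symbols at this level rose and 3.89% fell with a median of 0.0. The limit of 100 was set after the values were seen, and a split by the E17.5 value uses one of the values of the ratio.

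**Figure D4:**
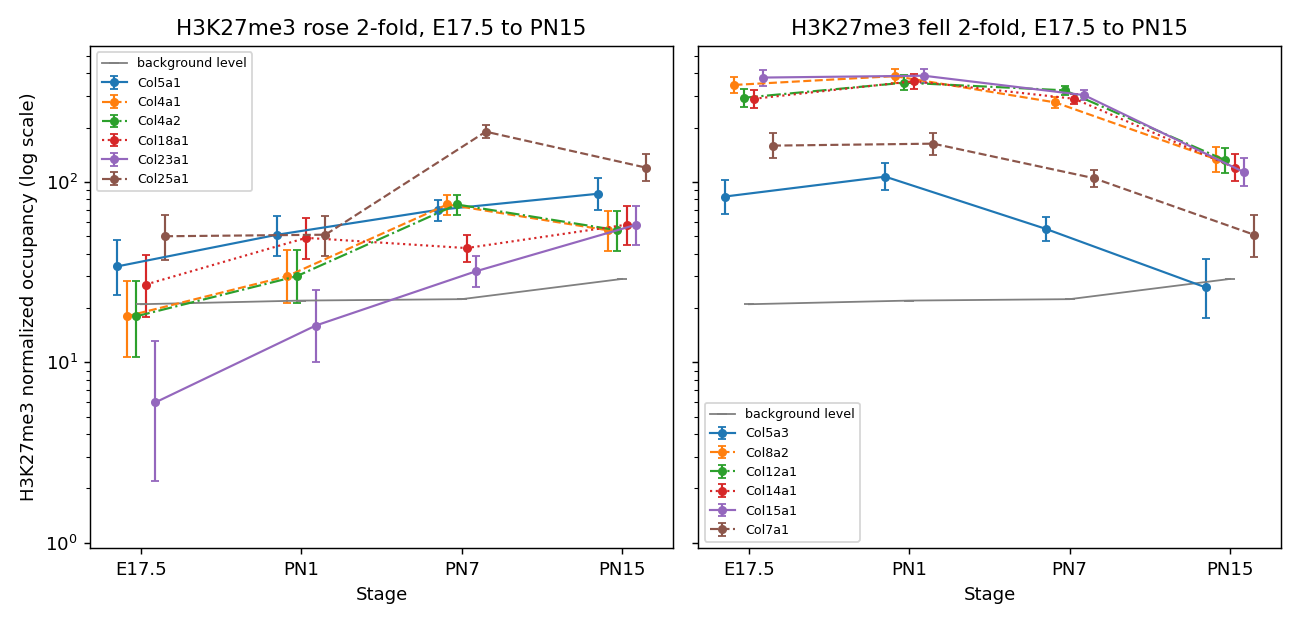
H3K27me3 normalized occupancy (log axis) by stage at the 6 collagen chain genes where it rose (left) and the 6 where it fell (right) from E17.5 to PN15, 1 library per stage, with exact Poisson 95% intervals for counting error as bars and the background level in grey. Col4a1 and Col4a2 share their start region and have the same values; Col25a1 reaches 190 at PN7, and 4 of the 6 falling genes start between 289 and 379.

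The fibrillar chains, which assemble into cross-striated fibrils, numbered 11. Of these, 8 had H3K27me3 above background at E17.5 (24.3% of all symbols) and 6 at PN15 (19.3%). At Col1a1, a chain of type I collagen of bone, skin and sclera, H3K4me2 was 40, 26, 13 and 18, listed from the first stage to the last as in all that follows, and H3K27me3 was 107, 156, 103 and 110. H3K4me2 thus fell (-1.24) while H3K27me3 ended where it began, with an E17.5 interval of 87.7 to 129 and a PN15 interval of 91.6 to 131. Col2a1, the chain of vitreous and cartilage type II collagen, had the largest H3K4me2 sum of all members, with 87, 61, 75 and 56, beside H3K27me3 of 56, 82, 94 and 86. It carried both marks at every stage and was called in neither (changes of -0.76 and 0.61), and its 2 entries are identical.

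The type V and XI chains, which regulate fibril diameter, differed among themselves. At Col5a1 H3K4me2 was 44, 39, 60 and 30 and H3K27me3 climbed at each stage, through 34, 51, 70 and 86 (change of 1.31, E17.5 interval 23.5 to 47.5, PN15 interval 70.2 to 105). At Col5a2 H3K4me2 fell, through 26, 16, 3 and 7 (-1.89), and H3K27me3 was 4, 11, 13 and 17, below background at all stages. Col5a3 went the other way, with H3K4me2 of 14, 13, 6 and 26 and H3K27me3 that fell from 83 and 107 to 55 and 26 (-1.64), below the background level at PN15. Within type V, 1 chain gene therefore rose, 1 fell and 1 had no H3K27me3 above background.

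Col11a1 was the clearest member with H3K4me2 alone, at 73, 53, 65 and 80, with H3K27me3 of 12, 8, 15 and 14. Its H3K4me2 change was 0.00 and it had the highest H3K4me2 of all members at PN15 (interval of 63.4 to 99.6). Col24a1, a minor fibrillar chain, had H3K4me2 of 42, 22, 18 and 17, which fell (-1.39), and H3K27me3 of 25, 33, 35 and 40. Col27a1, a fibrillar chain of cartilage, had H3K4me2 of 57, 28, 83 and 35 and H3K27me3 of 184, 234, 212 and 145, above background in both marks at all stages. Of the remaining fibrillar chains, Col1a2 and Col11a2 carried H3K4me2 of 15 to 70 with H3K27me3 of 24 to 66, and Col3a1 had at most 7 of either mark.

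The 6 type IV genes of basement membranes lie as 3 head-to-head pairs, and the occupancy windows of a pair are largely the same DNA. The starts of Col4a1 and Col4a2 lie 21 bp apart on chromosome 8 and share 4979 of 5000 bp of window, those of Col4a3 and Col4a4 72 bp apart on chromosome 1 share 4928 bp, and those of Col4a5 and Col4a6 1343 bp apart on chromosome X share 3657 bp. The members of a pair are therefore not separate observations, and counted once per pair the members rising in H3K27me3 were 5 and those falling in H3K4me2 12. All 6 had H3K4me2 above background at every stage (70.9% to 77.2% of all symbols at single stages).

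Col4a1 and Col4a2, the ubiquitous chains of vessel and retinal basement membranes, both had H3K4me2 of 66, 48, 57 and 37 and H3K27me3 of 18, 30, 75 and 54. H3K27me3 was below the background level at E17.5 (interval of 10.7 to 28.4), above it at PN1 and highest at PN7, and the change to PN15 was 1.53 with an interval of 41.5 to 69.3 at that stage. Their H3K4me2 change was -0.95, just inside the 2-fold limit. The 2 CpG-dense sequences printed above cover both starts and lie around the centre of this window.

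Col4a3 and Col4a4, chains of the specialised type IV network of the kidney glomerulus and some ocular membranes, had H3K4me2 of 26, 18, 15 and 11, which fell (-1.30, intervals of 19.4 to 34.7 and 5.49 to 19.7). As printed these intervals overlap, and they lie apart only after the shift by the median change of all symbols. H3K27me3 was 35, 52, 36 and 34 at Col4a3 and 35, 51, 36 and 34 at Col4a4, with a change of -0.04. Col4a5, on the X chromosome, had H3K4me2 of 43, 21, 22 and 26 and H3K27me3 of 45, 27, 48 and 34. Its neighbour Col4a6 had 37, 16, 22 and 25 and 44, 27, 44 and 36, and neither was called in either mark. Of the type IV pairs, H3K27me3 thus rose at the first alone by the 2-fold rule, and the difference between pairs could not be tested.

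In the hexagonal network class, Col8a2 had H3K27me3 of 345, 386, 276 and 134, the second largest sum of the members, with H3K4me2 of 16, 12, 6 and 11. H3K27me3 fell (-1.36, E17.5 interval 310 to 383, PN15 interval 114 to 157) but stayed above background at PN15. Its partner chain Col8a1 carried both marks at moderate levels, with H3K27me3 of 35 to 62 and H3K4me2 of 11 to 27. Col10a1, the collagen of hypertrophic cartilage, had at most 6 of either mark.

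The FACIT collagens, which sit on the surface of fibrils, ranged from genes with much H3K27me3 to genes with neither mark. Col12a1 had H3K4me2 of 73, 35, 56 and 41 and H3K27me3 of 293, 355, 322 and 132, which fell (-1.14). Col14a1 had H3K4me2 of 43, 26, 27 and 14 and H3K27me3 of 289, 362, 289 and 120, and both fell (-1.69 and -1.26). Col19a1 had H3K4me2 of 45, 34, 33 and 27 and H3K27me3 of 180, 190, 193 and 103, and was called in neither mark (-0.85 and -0.80). All 3 kept H3K27me3 above 100 at PN15.

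The type IX chains, found with type II collagen in cartilage and vitreous, did not move together. At Col9a2 H3K4me2 was 46, 21, 20 and 9, the largest fall of any member (-2.37, intervals of 36.8 to 56.9 and 4.12 to 17.1), while H3K27me3 was 31, 45, 36 and 40. At Col9a3 H3K4me2 was 45, 29, 21 and 24 and fell just past the limit (-1.01), and H3K27me3 was 46, 37, 13 and 24, below background at PN7 and PN15. Col9a1 had at most 5 of H3K4me2 and at most 11 of H3K27me3. Col20a1 had H3K4me2 of 9, 6, 2 and 3, which fell (-1.46) from a low level with overlapping intervals of 5.3 to 14.6 and 0.619 to 8.77, and H3K27me3 of 10, 7, 4 and 12. Col16a1 carried both marks (H3K4me2 of 12 to 17, H3K27me3 of 33 to 53), and Col22a1 had H3K4me2 of 2 to 14 with H3K27me3 of at most 17.

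Of the type VI chains, which form beaded filaments around cells, Col6a1 had H3K4me2 of 21, 24, 8 and 5, which fell below background (-2.01), and H3K27me3 of 3, 6, 5 and 9. Col6a2 had H3K4me2 of 11 to 16 and H3K27me3 of at most 18. Col6a6 had H3K27me3 above background and H3K4me2 not above it at every stage, with 47, 52, 74 and 51 for H3K27me3 and 4, 7, 0 and 5 for H3K4me2. This holds for 1 of its 2 entries only, the other having H3K27me3 of 11, 7, 25 and 14 and H3K4me2 of 3, 2, 1 and 4.

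The multiplexins, basement membrane zone collagens that release antiangiogenic fragments, had opposite courses of H3K27me3. Col15a1 had the largest H3K27me3 sum of all members, with 379, 388, 303 and 113, a fall of 1.74 on the log2 scale (intervals of 342 to 419 and 94.8 to 135), and H3K4me2 of 13, 18, 15 and 16. Col18a1, the precursor of endostatin, had H3K4me2 of 55, 45, 61 and 26, which fell (-1.19), and H3K27me3 of 27, 49, 43 and 58, which rose (1.08, intervals of 17.8 to 39.3 and 44.5 to 73.3). The other entry of Col18a1 was low in H3K4me2, with 8, 7, 2 and 8, and below background in H3K27me3, with 10, 5, 4 and 4, so the calls hold for 1 of its 2 entries.

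Among the transmembrane collagens, Col23a1 showed the largest rise of H3K27me3 in the family, from 6 and 16 to 32 and 58 (3.08, E17.5 interval 2.2 to 13.1, PN15 interval 44.5 to 73.3). Its H3K4me2 was 47, 34, 37 and 22 and fell (-1.19), so it passed from H3K4me2 alone at E17.5 to both marks at PN7 and PN15. Col25a1, whose ectodomain is found in amyloid plaques and which is expressed in neurons, had H3K4me2 of 60, 39, 96 and 37. Its H3K27me3 was 50, 51, 190 and 120, a rise by PN7 (interval of 39 to 65.1 at PN1 and 175 to 206 at PN7) that was partly lost by PN15 and left a change of 1.25.

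Col13a1, a collagen of neuromuscular junctions, had H3K4me2 of 66, 42, 68 and 25, which fell (-1.50), and H3K27me3 of 277, 376, 308 and 148 (-0.90), the highest H3K27me3 of the members at PN15. Col17a1, of the epithelial hemidesmosome, had H3K4me2 of at most 12 and H3K27me3 of at most 22. Outside these classes, Col7a1, the anchoring fibril collagen of skin, had H3K27me3 of 159, 163, 105 and 51, which fell (-1.62), with H3K4me2 of 5, 3, 3 and 7. Col28a1 had at most 4 of H3K4me2 and 11 of H3K27me3.

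Among the 32 members with a promoter entry, promoter CpG content, which the choice of genes did not use, ran with the occupancy of both marks. A promoter entry was found for 32 of 40 members (80.0%), with none used for Col1a1, Col2a1, Col4a3, Col5a2, Col9a3, Col12a1, Col14a1 and Col22a1. Of these, Col12a1 and Col14a1 had H3K27me3 of 293 and 289 at E17.5. A promoter was called CpG-rich at a GC content of at least 50% and an observed to expected CpG ratio of at least 0.6, and a gene was classed by its promoter of highest CpG ratio. This held for 11 of the 32 members, or 34.4% (Col4a1, Col4a2, Col5a1, Col5a3, Col8a2, Col11a2, Col13a1, Col19a1, Col23a1, Col25a1 and Col27a1), and for 51.9% of the 15768 symbols with a promoter entry. Their median H3K4me2 was 47 at E17.5 and 30 at PN15, against 17 and 11 in the other 21. Their median H3K27me3 was 63 and 86, against 27 and 34, and with a ratio of at least 0.75 asked for it was 42 and 103, against 33 and 35. At PN15 10 of the 11 had H3K27me3 above background and 11 of the 21 others did (19.3% of all symbols). Among the 21 others was Col15a1, the member with the largest H3K27me3 sum, at a ratio of 0.39.

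Across the 32 members, Spearman's rho between the CpG ratio and H3K27me3 was 0.52, 0.57, 0.68 and 0.75 at the 4 stages, and between the CpG ratio and H3K4me2 0.57, 0.56, 0.60 and 0.67. These are descriptions across genes, which are not independent replicates and of which pairs share a start region. Over all symbols with a promoter, the median H3K27me3 was 10 in the CpG-rich and 11 in the others at E17.5 and 9 and 13 at PN15, and the median H3K4me2 was 61 and 5 at E17.5 and 71 and 5 at PN15. That comparison over all symbols is void as a check, since 78.7% of symbols had a promoter entry, below the 80% asked for. The share of 51.9% given above rests on the same symbols. Among them median H3K27me3 was not higher in the CpG-rich genes, unlike among the members.

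**Figure D5:**
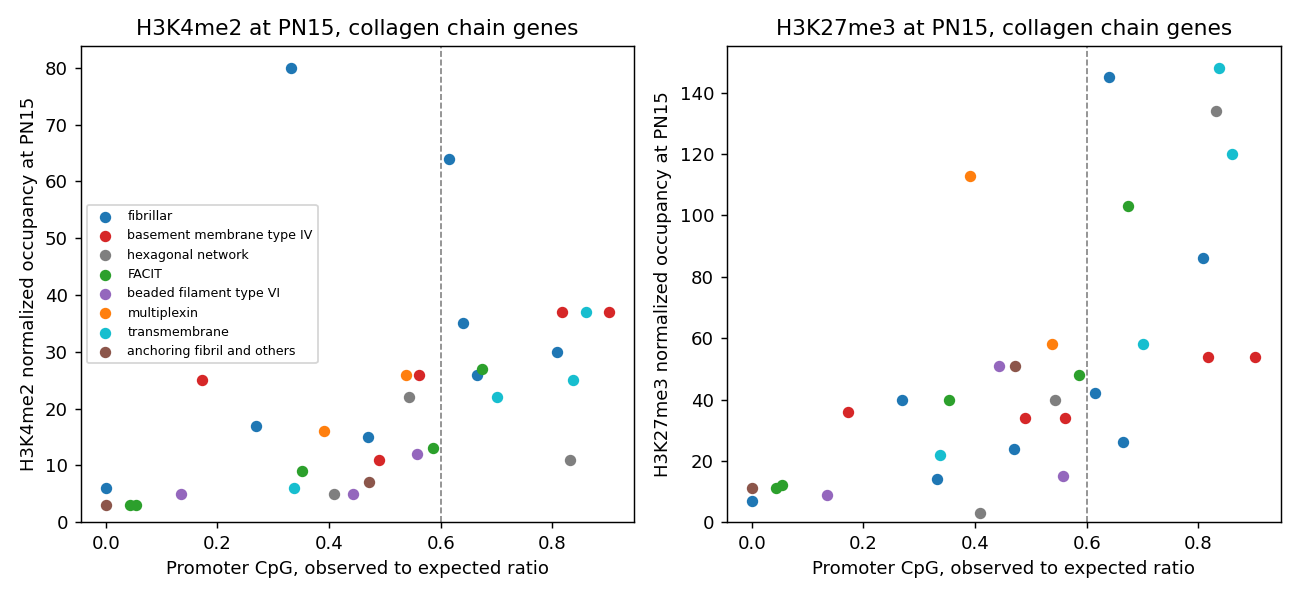
Observed to expected CpG ratio of the 300-base promoter against H3K4me2 (left) and H3K27me3 (right) normalized occupancy at PN15 for the 32 collagen chain genes with a promoter entry, 1 point per gene and 1 library per panel; the dashed line marks 0.6. Right of the line lie 11 genes, with H3K27me3 from 26 to 148; the genes at a ratio near 0 have at most 12.

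The genes that make, process and bind collagen were taken as lists by function, chosen with earlier results known. The shares of all symbols to read their counts against are 24.3% above background in H3K27me3 at E17.5 and 19.3% at PN15, 3.26% rising and 8.84% falling in H3K4me2 from E17.5 to PN15, and 2.89% rising and 8.68% falling in H3K27me3. Of 15 genes for hydroxylation, glycosylation and folding of the chains, all had H3K4me2 above background at every stage (70.9% to 77.2% of all symbols at single stages) and 5 had H3K27me3 above background at E17.5, with median H3K27me3 of 11 at E17.5 and 17 at PN15 (35 and 40 for the chains). From E17.5 to PN15, 0 rose and 1 fell in H3K4me2 and 2 rose and 2 fell in H3K27me3. Serpinh1, the collagen chaperone Hsp47, had H3K4me2 of 80, 45, 38 and 18 and H3K27me3 of 5, 11, 25 and 44, with changes of -2.23 and 2.91. Plod2, a lysyl hydroxylase, had H3K27me3 of 16, 13, 30 and 66 (1.98). H3K27me3 of the prolyl hydroxylase chain P4ha3 fell from 196 to 79 and of the lysyl hydroxylase Plod1 from 42 to 17.

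Of 13 genes for propeptide cleavage and crosslinking, 12 had H3K27me3 above background at E17.5 (24.3% of all symbols) and 11 at PN15 (19.3%), with medians of 69 and 65. In H3K4me2 1 fell, Loxl1, from 24 to 7 (8.84% of all symbols), and in H3K27me3 3 fell (8.68%). These were Adamts2, which removes the amino propeptide, from 276 to 113, the lysyl oxidase Lox from 247 to 105 and the enhancer Pcolce2 from 140 to 65. Of 9 collagen receptors, 2 fell in H3K4me2 (8.84% of all symbols), the integrin chain Itga11 from 35 to 8 and the discoidin receptor Ddr1 from 88 to 30, and 1 fell in H3K27me3 (8.68%), Itga1 from 108 to 48.

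Of 15 other basement membrane genes (laminins, nidogens, perlecan and agrin), 7 had H3K27me3 above background at E17.5 and at PN15 (24.3% and 19.3% of all symbols). H3K4me2 rose at 1 and fell at 2 (3.26% and 8.84% of all symbols), and H3K27me3 rose at 1 and fell at 3 (2.89% and 8.68%). Among the laminin chains, H3K27me3 of Lamb1-1 fell from 356 to 111 and of Lamc3 from 198 to 79, and H3K4me2 of Lamb2 from 54 to 19. The 9 small leucine-rich proteoglycans, which coat collagen fibrils, were mostly unmarked, with 3 above background in H3K4me2 and 1 in H3K27me3 at E17.5 (77.2% and 24.3% of all symbols) and 1 and 0 at PN15 (70.9% and 19.3%). Of them Prelp fell in H3K4me2 from 41 to 8 and Fmod from 5 to 0.

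Markers of the cell types that a retina could hold were also read, against 3.26% of all symbols rising and 8.84% falling in H3K4me2 from E17.5 to PN15. H3K4me2 rose at 8 of 8 rod photoreceptor genes, whose summed value went through 113, 124, 168 and 818 at the 4 stages. It fell at 5 of 8 inner retina markers (summed 507 to 288), 5 of 7 pericyte and smooth muscle markers (161 to 66), 6 of 9 fibroblast and mesenchyme markers (285 to 120), 3 of 7 lens markers (58 to 31), 2 of 8 endothelial markers (212 to 142) and 1 of 8 pigment epithelium markers (151 and 151). At PN15 Pecam1 of the endothelial list and Dcn of the fibroblast list were at 0 (2.52% of all entries). At PN7, where 19.5% of all entries were at 0, Tie1, Emcn, Acta2, Lum, Dcn, Rpe65, Tyr, Best1, Crybb2, Mip and Lim2 were. In H3K27me3 the fibroblast and mesenchyme list went from a sum of 2808 to 1413 with 4 of 9 falling (8.68% of all symbols), and of the inner retina list Pax6 and Rlbp1 rose while Grm6 and Thy1 fell. The part of these cell types in the collagen values was not tested.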

How the data were processed

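ChIP-Seq libraries of mouse retina (1 for each of 4 stages and 2 marks) were analysed as a table of scores per gene entry. The authors mapped reads with Bowtie 0.12.4 to mm9, dropped reads with several positions, and deposited the score of each TSS region, its reads normalized to the library total and rounded. No count model was used. The series also has an rd1/rd1 and an anti-GFP sample, not analysed here.

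Changes are log2 with a pseudocount of 1. The value of 1 read was estimated from the spacing of the scores (a gain in log likelihood of at least 50, a limit set after the data were seen); for H3K4me2 at PN7 and PN15 and H3K27me3 at E17.5 no spacing was found and 1 read per unit was assumed. Total reads per library are not given in the sources used here. The calling steps were tested on simulated data with counting error alone and with changes larger than the 2-fold limit. That test does not show how often libraries of the same stage would differ 2-fold. Promoters are those of RefSeq (GRCm38.p6), placed on mm9 by exact match, with the promoter of the highest CpG ratio used where a gene has several. The other gene positions follow GENCODE annotation of the same build.

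The members, lists and alternatives were chosen with earlier results of these data known. All 8 values are given for members called from E17.5 to PN15 in either mark, the 8 with the largest sum of each mark, the type IV chains and the members whose entries differ, and of other lists the called genes, at most 4 for each list, apart from genes that are not reported here. Dcn and Lum stand in both the fibroblast and the proteoglycan list. The alternatives were another background level, pseudocount, centring, filter, entry choice, CpG limit and counting demand, and shared start regions counted once. Versions were numpy 2.4.6, matplotlib 3.10.9, scipy 1.17.1 and pandas 2.3.3 under Python 3.11.15.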

Additional observations from a re-analysis of the deposited data

How the results depend on the processing

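No result has replicate error, so the counts rest on the 2-fold rule and on the libraries as deposited. No paired analysis was possible because each stage and mark has 1 library. Without centring, the H3K4me2 counts moved to 6 members falling from E17.5 to PN1, 3 rising and 4 falling from PN1 to PN7, 2 rising and 5 falling from PN7 to PN15, and 1 rising from E17.5 to PN15, and the median H3K4me2 changes of the 3 steps were -0.51, -0.14 and 0.10, so the last 2 of these changed direction. With a pseudocount of 5, 4 members rose in H3K4me2 from PN1 to PN7 (9.18% of all symbols), 0 rose from PN7 to PN15 (5.18%), and 5 fell in H3K27me3 from PN7 to PN15 (4.61%). By the fold alone, with no demand on the background, 3 members rose in H3K4me2 from E17.5 to PN1 (13.7% of all symbols), 6 fell from PN1 to PN7 (26.6%) and 5 rose from PN7 to PN15 (15.9%), while in H3K27me3 2 rose (5.74%) and 1 fell (8.25%) from E17.5 to PN1 and 3 rose from PN7 to PN15 (15%). Where the counting intervals also had to lie apart, with the estimated value of 1 read or with 1 read per unit, 0 members fell in H3K4me2 from E17.5 to PN1 (0.344% and 0.234% of all symbols), 1 fell from PN1 to PN7 (1.88% and 1.82%) and 0 rose from PN7 to PN15 (3.23% with either). The member counts of H3K4me2 falls and of H3K27me3 rises and falls from E17.5 to PN15 stayed within 1.5 times under each alternative run. So did the members above background with the 99th percentile or the mean over entries. The shares of all symbols moved more. By the fold alone, 13 members fell in H3K4me2 from E17.5 to PN15 (12.8% of all symbols). In H3K27me3 9 rose (12.1%) and 6 fell (16.1%), so the falling share of the members, 15%, was no longer above that of all symbols. The cause of these differences was not tested.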

Other observations

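One gene of the basement membrane list, picked after its values were seen, had a gap at PN7 in both marks. Nid1, the basement membrane linker nidogen, had H3K4me2 of 27, 32, 0 and 17 from the first stage to the last, with H3K27me3 of 134, 166, 2 and 74. No collagen chain gene had such a gap in both marks, the members at 0 in H3K4me2 at PN7 being Col3a1, Col6a6, Col9a1 and Col17a1, of which Col6a6 had H3K27me3 of 74 at that stage.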
